A study of Mus musculus with 6 samples.

Results

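The fatty acid binding proteins Fabp1 to Fabp7 were followed on Affymetrix arrays of IWAT, a subcutaneous white fat depot, from mice. Probe sets were taken where the platform's annotation table gave one of these 7 gene symbols alone, which found 12 of the 22690 probe sets on the array and all 7 genes. Control mice were YY1flox/flox, and mice of the other group, named YY1bKO, were YY1flox/flox; Ucp1Cre. Both groups therefore carried floxed alleles of Yy1, the gene of a zinc finger transcription factor, and only the second carried a Cre recombinase driven by Ucp1 sequences, which act mainly in thermogenic fat cells. All mice were 8 weeks old, of mixed C57BL6 and 129 background, and were given a high fat diet during 2 weeks. Each group had 3 arrays, and this number limits the precision of all values. The labels do not say whether the arrays came from separate animals, so that the p-values measure only the spread between these samples, which may be technical. A group with Cre but without floxed Yy1 is not named in the labels, so effects of Cre and of YY1 loss cannot be told apart.

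Fatty acid binding proteins are small cytosolic proteins that hold long chain fatty acids and related lipids in a barrel-shaped pocket, keep them soluble, and carry them between membranes, lipid droplets, mitochondria and the nucleus. Each form is known from particular tissues: FABP1 from liver and intestine, FABP2 and FABP6 from intestine, FABP3 from heart and skeletal muscle, FABP4 (also called aP2) from fat cells, macrophages and capillary endothelium, FABP5 from skin, fat and macrophages, and FABP7 from glia. FABP4 is a classical product of mature fat cells and binds hormone-sensitive lipase, while FABP3 is abundant in cells that burn fatty acids, brown adipocytes among them.

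Intensities of the arrays had medians from 123.15 to 130.35 and lower quartiles from 29.9 to 31.7, in arbitrary units. Signals under the lower quartile are called dim here. Yy1 itself gave a log2 difference of -0.24 ± 0.12 (SE), with limma adjusted p = 0.574, and its 4 probe sets ran from -0.24 to -0.07. Cre acts in Ucp1-expressing cells, and the sources used here do not say which probe sets lie in the deleted part, so that these values check the labels only in part. Adipoq, the defining secreted product of fat cells, was bright on all arrays (15948.4 to 20044.7). Other tissue differed between arrays. The summed intensity of 6 keratinocyte genes was 7597.6 in control replicate 2, mostly from Krt14 (5585.1), and 208.6 to 279.2 in the other arrays. On the same array 7 mammary and luminal epithelium genes summed to 4476.1, against 174.7 to 375.2 on the others. Krt1 and Csn2, a member of each list, were dim on all arrays. Whether these signals came from skin or from gland was not tested. The sum of 4 B cell genes ran from 106.3 in YY1bKO replicate 1 to 5693.1 in control replicate 3. In whole tissue, fewer cells of a type and less RNA per cell cannot be told apart.

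Fabp3 was the member of the family that differed between the genotypes: it gave a low signal in control fat and a bright one in YY1bKO fat. The other 6 genes did not pass the test, the signals of Fabp4 and Fabp5 being high in both groups and those of Fabp1, Fabp2, Fabp6 and Fabp7 dim on nearly every array. At a limma adjusted p under 0.05, 1 of the 7 genes was higher in YY1bKO, where 0.0323% of the 12394 genes tested were (4 genes). At an unadjusted p under 0.05 the same gene was the 1 of 7 that was higher and 0 of 7 were lower, against 8.45% and 1.99% of all genes. The groups did not overlap in 1 of the 7 genes, against 16.5% of all genes in either direction. The members differ in tissue and role, so that each is described on its own.

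**Figure D1:**
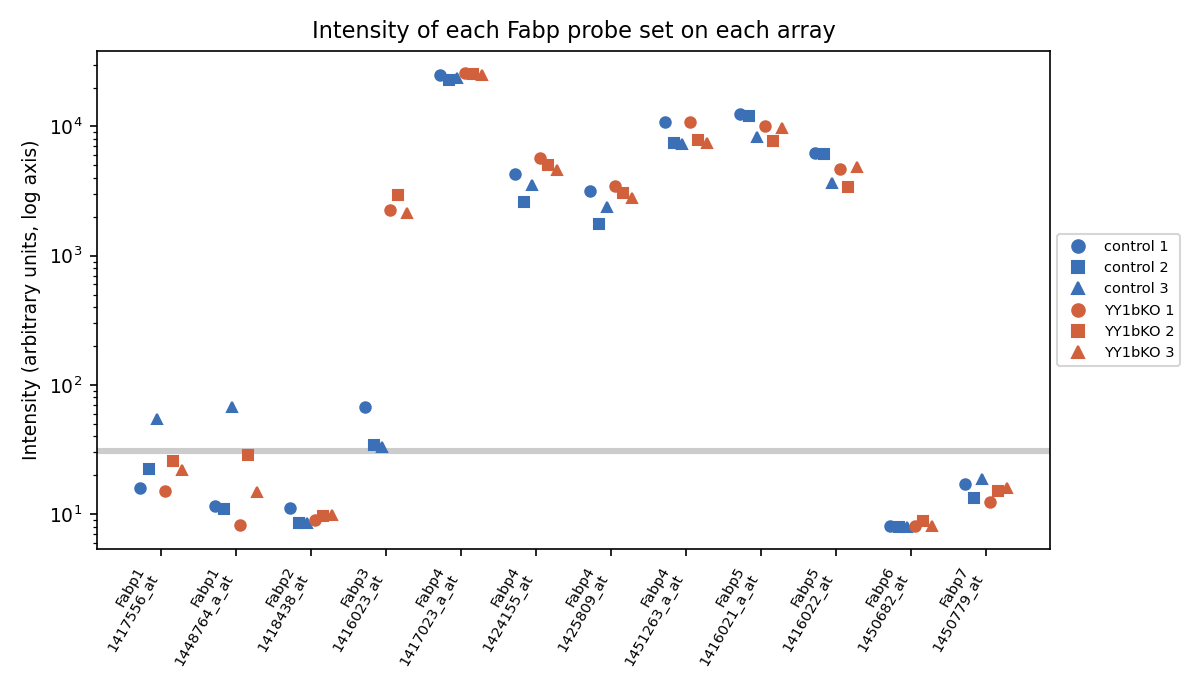
Intensity on a log axis of the 12 Fabp probe sets on each of the 6 arrays (blue, control; orange, YY1bKO; marker shape, replicate number), with the range of the arrays' lower quartiles as a grey band. Fabp3 lies between 33.3 and 67.7 in the controls and between 2131.6 and 2937.4 in YY1bKO, while the groups' points of most other probe sets lie among each other.

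The upstream sequence of Fabp3 is shown because its transcript is the one that differed and because the factor targeted in these mice binds DNA around the core GCCAT. That of Fabp1 is given as a contrast whose transcript did not pass the test. Both are the 250 bases before the RefSeq start on build GRCm38.p6, chr4:130308488-130308737 and chr6:71199629-71199878, each on the + strand and written 5′ to 3′. Capitals mark GCCAT on either strand (ATGGC where it lies on the other).

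Fabp3: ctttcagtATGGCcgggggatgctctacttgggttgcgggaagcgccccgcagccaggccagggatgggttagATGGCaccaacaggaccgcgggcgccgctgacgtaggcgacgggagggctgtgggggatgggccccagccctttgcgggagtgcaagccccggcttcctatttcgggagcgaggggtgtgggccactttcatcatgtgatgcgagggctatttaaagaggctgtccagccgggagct

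Fabp1: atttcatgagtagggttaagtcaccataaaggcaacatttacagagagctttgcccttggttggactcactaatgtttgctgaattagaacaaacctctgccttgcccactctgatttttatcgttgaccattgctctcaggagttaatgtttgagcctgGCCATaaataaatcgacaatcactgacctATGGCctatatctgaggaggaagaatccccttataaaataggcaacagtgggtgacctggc

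The Fabp3 window held 2 matches to GCCAT, both on the minus strand, and the Fabp1 window also held 2. Fabp7 held 1, and Fabp2 and Fabp6 held 0. Of the 32851 promoters in the table, 32.9% had at least 1 match in these 250 bases, so that such a match is common. The hexamer AGGTCA, bound by many nuclear receptors including the PPARs, had 2 matches for Fabp1, 1 for Fabp7 and 0 for Fabp2, Fabp3 and Fabp6, against 14% of all promoters with a match on either strand. The Fabp3 window was rich in G and C (64.8%, against a median of 52.4% over all promoters). The TATA box letters TATAAA were present upstream of Fabp1 on the plus strand and of Fabp6 on the minus strand (12.4% of all promoters, either strand). They were not in this window of Fabp3. Only these exact letters were searched for, so that close variants of a TATA box were not counted. No 2 of these matches overlapped. They describe letters only. Promoters of Fabp4 and Fabp5 were not analysed here.

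Fabp3, the heart and muscle form, lies at chromosome 4, 130308738 to 130315463 (GRCm38.p6), and had a single probe set (1416023_at). Its intensities were 67.7, 34.2 and 33.3 in control replicates 1, 2 and 3, and 2241.2, 2937.4 and 2131.6 in YY1bKO replicates 1, 2 and 3. The lowest YY1bKO array was far above the highest control array, and 2 of the control values stood close above the lower quartile. Ranked among all probe sets of its own array, Fabp3 stood at percentiles 39.3, 26.7 and 26.3 in control arrays and at 94.6, 96.1 and 94.2 in YY1bKO. In log2(intensity + 1), where changes of dim genes come out too small, it rose from 5.45 ± 0.57 to 11.24 ± 0.25 (SD, n = 3 each). The difference was 5.79 ± 0.30 (SE; 95% confidence interval 5.06 to 6.52), or 55.3-fold with an interval of 33.4 to 91.8, with a limma adjusted p of 0.00638 over all genes. No other of the 12394 genes had a larger log2 rise. Since the control signals are low, where arrays tend to compress differences, the size of the fold is not exact. The exact 2-sided permutation test gave p = 0.1, the smallest that 3 against 3 arrays allow.

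The size of the Fabp3 difference hardly depended on which array was left out, but its call did. Without YY1bKO replicate 1, 2 or 3 the log2 differences were 5.84, 5.65 and 5.88, and the limma adjusted p values were 0.0812, 0.0790 and 0.103, past the threshold in none of these 3 fits. Without control replicate 1, 2 or 3 they were 6.12, 5.64 and 5.62, with adjusted p values of 0.00155, 0.0267 and 0.0421. Control replicate 1, with 67.7, was the highest control array.

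Muscle is a tissue in which Fabp3 is abundant, and muscle genes were measured beside it. The summed intensity of 8 skeletal muscle genes was 463.4 to 613.4 in the controls, and 4391.2, 740 and 1783.6 in YY1bKO replicates 1, 2 and 3. Acta1, skeletal actin, was at 1569.2, 524.3 and 1572 in YY1bKO replicates 1, 2 and 3, against 181 to 312.7 in the controls. Its groups did not overlap (log2 difference 2.08, limma adjusted p = 0.251), and it accounted for much of the sum in replicates 2 and 3. Tnnc2, fast troponin C, was 1021.1 in YY1bKO replicate 1, and 40.1 and 37.9 in replicates 2 and 3, against 37.6 to 70.7 in the controls. Ckm, muscle creatine kinase (447.2, 60.2 and 53.9, against 55.7 to 71), and Myh4, a fast myosin (454.2, 10.1 and 9.4, against 11.9 to 18.3), had the same order. Of the 8 genes, 0 passed by limma over all genes, and 1, Acta1, was higher at an unadjusted p under 0.05 (8.45% of all genes). On the same 3 arrays Fabp3 was at 2241.2, 2937.4 and 2131.6, and without YY1bKO replicate 1 its log2 difference was 5.84. That fit kept YY1bKO replicate 3, with Acta1 at 1572, and the part of muscle in the Fabp3 values was not tested. Of 6 heart and slow muscle genes, 5 were dim on all arrays (Myh6, Myh7, Tnnt2, Myl2 and Nppa), and the list's sums were 90.3 to 95.8 in the controls and 87.4 to 103.6 in YY1bKO.

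Of 6 brown and beige adipocyte genes, 1 passed by limma over all genes (0.0323% of all genes were higher at that threshold), and 4 were higher and 0 lower at an unadjusted p under 0.05 (8.45% and 1.99%). Their summed intensity was 1442.5 to 2961.6 in the controls and 6739.3 to 7642.2 in YY1bKO, without overlap. Ucp1, the uncoupling protein of these cells, was at 51.5, 50 and 42.1 in control arrays and at 1610.2, 2062 and 1929.2 in YY1bKO, and passed the test (limma adjusted p = 1.91e-04). Cox8b (from 689.1 to 1468.3 in the controls, 2534.8 to 3001.2 in YY1bKO) and Cox7a1 (67.3 to 136.7, then 412.4 to 513.7), subunits of cytochrome oxidase typical of muscle and brown fat, did not overlap between groups, with limma adjusted p values of 0.173 and 0.101. Cidea, a lipid droplet protein, overlapped: 462.7, 2067.8 and 457.4 in the controls, 1683.1 to 1931.4 in YY1bKO. Elovl3, a fatty acid elongase, was at 48.9 to 58.2 and 178.7 to 315.3 (log2 difference 2.15, limma adjusted p = 0.0539). Dio2, the deiodinase that activates thyroid hormone, overlapped at 32.4 to 41.9 and 37.6 to 39.4 (0.07). How far these cells or muscle account for the Fabp3 signal was not tested.

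The genes whose log2 values over the 6 arrays were most alike to those of Fabp3 by Pearson correlation were Ucp1 (0.995), Slc27a2, which takes up and activates fatty acids (0.995), Acaa2, a thiolase that ends each round of beta-oxidation (0.994), Sfxn1, which moves serine into mitochondria (0.991), and Sdhb, a succinate dehydrogenase subunit (0.990). These 6 points fall in 2 separate groups of 3, so that any gene with a clean difference between genotypes has a high value here. The values describe likeness over these arrays only. Sizes were unlike: Acaa2 had a log2 difference of 1.00, Sfxn1 of 0.87 and Sdhb of 0.52, against 5.79 for Fabp3, and these 3 did not pass the test.

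**Figure D2:**
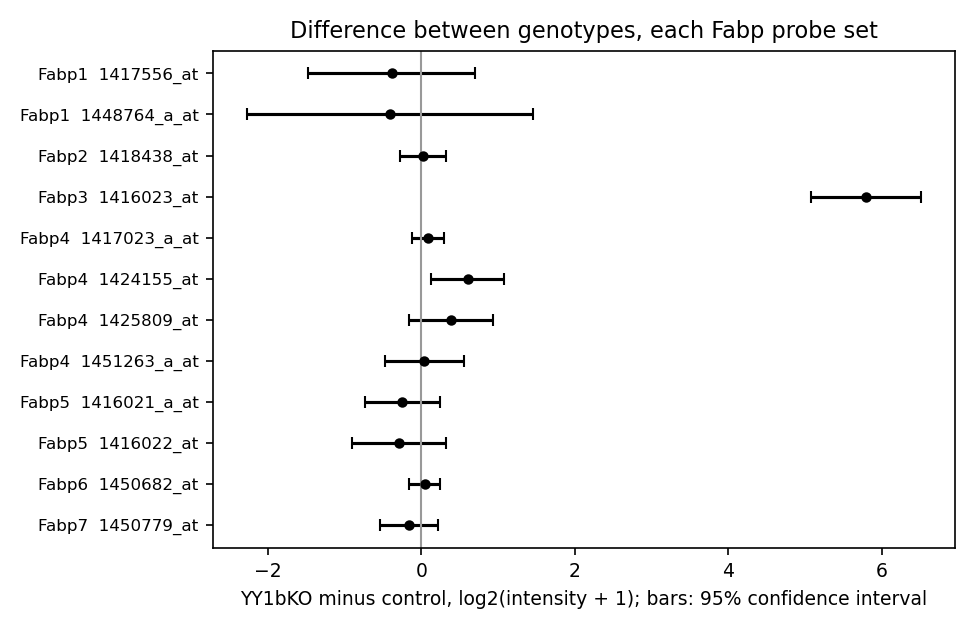
Log2 difference between YY1bKO and control of each Fabp probe set with its 95% confidence interval from limma, unadjusted for the number of probe sets. Fabp3 stands at 5.79, and all other points lie between -0.41 and 0.60.

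Fabp4, the adipocyte form, lies at chromosome 3, 10204342 to 10208616 (GRCm38.p6), and was measured by 4 probe sets. The one with the highest mean, 1417023_a_at, represents the gene. Its intensities were 25062.5, 22856.3 and 23739 in control arrays and 25730.1, 25352.9 and 24958.6 in YY1bKO. The groups overlapped, through control replicate 1. This was the brightest probe set of the whole array on 5 of the 6 arrays and ranked 2 on control replicate 2, so that it sits at the top of the measured range. Saturation of this probe set was not analysed here. The log2 difference was 0.09 ± 0.08 (SE; 95% confidence interval -0.12 to 0.29), and the limma adjusted p over all genes was 0.775.

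The other Fabp4 probe sets gave higher means in YY1bKO too, by unlike amounts. Probe set 1424155_at read 4248.1, 2579.5 and 3496.2 in control arrays and 5723.9, 5062.3 and 4618.3 in YY1bKO, with no overlap between the groups. Its log2 difference was 0.60 ± 0.20 (SE; 95% confidence interval 0.12 to 1.08), or 1.52-fold. It did not pass when adjusted over the 20393 probe sets with 1 gene symbol (limma adjusted p = 0.418), where 0.0294% passed in either direction. Probe set 1425809_at read 3185.9, 1753.5 and 2369.5 in control arrays and 3462, 3059 and 2779.2 in YY1bKO, a log2 difference of 0.38 ± 0.23 (SE, adjusted p = 0.659 by limma). Probe set 1451263_a_at read 10781.8, 7477.6 and 7289.3, then 10810.3, 7910.4 and 7454.6, a difference of 0.04 ± 0.21 (SE, 0.967). The gene's difference was 0.28 with the mean of its 4 probe sets and 0.60 with the one that varied most, both without passing (limma adjusted p = 0.670 and 0.404).

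Arrays were ordered alike by 3 of the 4 Fabp4 probe sets: over the 6 arrays the log2 values of 1417023_a_at correlated with those of 1424155_at at 0.98 and with those of 1425809_at at 0.98, and with those of 1451263_a_at at 0.61. In those 3, control replicate 2 was the lowest array of all. It is the array with the high keratinocyte and mammary epithelium sums. It also had the lowest sum of 4 white adipocyte genes (31421.1, against 34663.7 and 43855.1 in the other controls and 36853.6 to 41215.1 in YY1bKO). Without it the difference was 0.41 in 1424155_at and 0.17 in 1425809_at. Capillary endothelium and macrophages, which carry Fabp4 too, had summed marker intensities of 2055.1 to 3563.5 and 10194.9 to 16406.3 in the controls and of 3084.6 to 3730.6 and 11193.1 to 14113 in YY1bKO, overlapping in both cases. Of 5 endothelium and 6 macrophage genes, 0 passed by limma over all genes. In each list 1 was higher and 0 were lower at an unadjusted p under 0.05 (8.45% and 1.99% of all genes). These were Robo4 (log2 difference 0.62, limma adjusted p = 0.293) and Cd163 (0.67, 0.295), without overlap. All 5 endothelium genes had a higher mean (median 0.37), and 2 of the 6 macrophage genes did (median -0.10). The part of these cells in the Fabp4 values was not tested. Genes most alike to Fabp4 over the arrays were Arhgef10, a guanine exchange factor (0.995), Procr, the endothelial protein C receptor (0.991), Timp2, a metalloproteinase inhibitor (0.989), Hsp90aa1, a chaperone (0.989), and Dusp26, a phosphatase (0.988), none of which passed the test.

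Fabp5, the epidermal form, which fat cells make beside Fabp4, lies close to Fabp4 at chromosome 3, 10012585 to 10016610, and had 2 probe sets. The brighter one, 1416021_a_at, read 12545.4, 12072.4 and 8227.8 in control arrays and 10098.3, 7655.9 and 9650.2 in YY1bKO. Control replicates 1 and 2 were the highest arrays, and control replicate 3 lay among the YY1bKO arrays. YY1bKO differed from control by a log2 value of -0.25 ± 0.20 (SE; 95% confidence interval -0.74 to 0.24), and the limma adjusted p over all genes was 0.732. Probe set 1416022_at ordered the arrays almost alike (correlation 0.99), from 3670.1 to 6286.5 in the controls and from 3411.6 to 4883.6 in YY1bKO, with a difference of -0.29 ± 0.25 (SE). The intervals allow a fall of up to 0.74 and a rise of up to 0.24 in the first probe set, so that no difference was shown in either direction.

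The lowest Fabp5 arrays, YY1bKO replicate 2 and control replicate 3, were those with the highest B cell sums (2741.9 and 5693.1). Control replicate 2 went the other way, with the next highest B cell sum (2188.1) and a high Fabp5 value (12072.4). The part of B cells in the Fabp5 values was not tested. Control replicate 1 had the highest Fabp5 value (12545.4) at a keratinocyte sum of 258.5, and control replicate 2 had 12072.4 at 7597.6. The part of keratinocytes in the Fabp5 values was not tested. The macrophage sum overlapped between the groups, as given with Fabp4, where Cd163 did not. Genes most alike to Fabp5 over the arrays were Cttn, cortactin (0.985), Gja1, connexin 43 (0.982), Nkiras2 (0.978), Kif5b, a kinesin motor (0.976), and Dync1i1, a dynein chain that was dim here (0.973). Their log2 differences lay between -0.30 and -0.05 and none passed the test.

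The remaining forms gave little signal in this tissue. Fabp2, the intestinal form, read 11.1, 8.5 and 8.6 in control arrays and 9, 9.7 and 9.8 in YY1bKO. Fabp6, the ileal bile acid binding protein, read 8.1, 8 and 8, then 8.1, 8.8 and 8.1. Fabp7, the glial form, read 17.1, 13.4 and 18.7, then 12.4, 15 and 16. These 3 genes were dim on all 6 arrays, and their log2 differences of 0.02, 0.05 and -0.16 had limma adjusted p values of 0.968, 0.880 and 0.770. At such levels a change of the RNA may not show. Of 5 intestinal and 4 glial markers, 0 passed by limma over all genes, and 1 of each list was higher and 0 were lower at an unadjusted p under 0.05 (8.45% and 1.99% of all genes). Among the intestinal markers Lgals4, a galectin, was at 160.7, 235.9 and 207.5 on the control arrays and 320.6, 417.4 and 313 in YY1bKO, without overlap (log2 difference 0.80, limma adjusted p = 0.251). The others overlapped (Cdx2 -0.08, Apoa4 0.19, Slc5a1 -0.78 and Vil1 0.01), and Vil1, villin, was dim on all arrays. Among the glial markers Mbp, myelin basic protein, was at 723.9 to 848.2 in the controls and 1133.8 to 1853.2 in YY1bKO (0.93, limma adjusted p = 0.211), with 8 probe sets from -0.32 to 1.00. S100b (-0.16), Sox10 (-0.17) and Gfap (-0.02) overlapped, and the median of the glial list was -0.09. The part of these tissues in the values of Fabp2, Fabp6 and Fabp7 was not tested.

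Fabp1, the liver form, was dim on 5 of 6 arrays in each of its 2 probe sets, the exception being control replicate 3 in both. Probe set 1417556_at read 16, 22.5 and 54.3 in control arrays and 15, 25.8 and 22.1 in YY1bKO. Probe set 1448764_a_at read 11.6, 10.9 and 67.1, then 8.3, 28.8 and 14.8. The log2 difference of the first was -0.39 ± 0.45 (SE, limma adjusted p = 0.820), and without control replicate 3 it was 0.10. In 1448764_a_at it was -0.41, and 0.42 without that array. Both probe sets were highest in control replicate 3 and next in YY1bKO replicate 2, the arrays with the highest and second highest B cell sums. Both were lowest in YY1bKO replicate 1, where that sum was lowest (106.3). Control replicate 2, with the next highest sum (2188.1), came next in 1417556_at (22.5). In 1448764_a_at it read 10.9, below control replicate 1 (11.6), where that sum was 128.6. The 3 liver genes measured summed to 305.5 in control replicate 3, the lowest of all arrays, and to 351.9 to 531.3 in the others. The part of either tissue in the Fabp1 values was not tested.

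**Figure D3:**
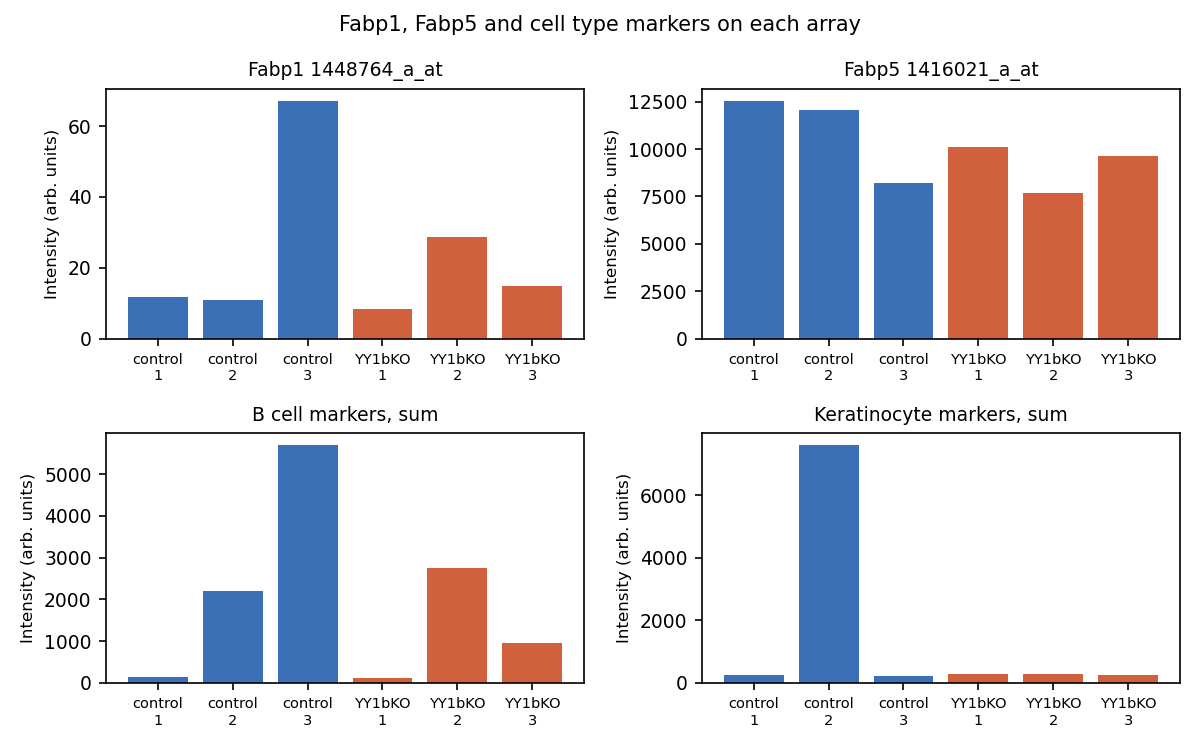
Intensity of a Fabp1 and a Fabp5 probe set on each array (top), and summed intensity of 4 B cell and 6 keratinocyte genes (bottom), as bars from 0 (blue, control; orange, YY1bKO). Fabp1 is highest (67.1) and Fabp5 among the lowest (8227.8) on control replicate 3, which has the highest B cell sum (5693.1), and the keratinocyte sum stands out on control replicate 2 (7597.6).

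Which form dominates cannot be read as an order of RNA amounts, because signals of different probe sets depend on the probes and share no common scale. What the arrays give is the signal of each form in each genotype. In the controls the adipocyte forms gave the signals, with a mean of 23885.9 ± 1110.4 for Fabp4 (1417023_a_at) and of 10948.5 ± 2368.1 for Fabp5 (1416021_a_at; SD, n = 3), and Fabp3 was at 45.1 ± 19.6. In YY1bKO fat Fabp4 was at 25347.2 ± 385.8 and Fabp5 at 9134.8 ± 1300.2, and Fabp3 joined them with 2436.7 ± 437.0. A ratio within each array can be compared between arrays. The log2 value of Fabp3 minus that of Fabp4 was -8.51, -9.34 and -9.43 on the control arrays and -3.52, -3.11 and -3.55 in YY1bKO. The ratio differed by 5.70 on the log2 scale, with no overlap of the groups (exact 2-sided permutation p = 0.1, the smallest possible). Beside it stand differences of 5.79 for Fabp3 and 0.09 for Fabp4, and that of Fabp4 did not pass by limma. With the mean of all Fabp4 probe sets the difference of the ratio was 5.51.

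Genes that hand fatty acids to the binding proteins or take them over were read from lists made for the family's surroundings. Of the uptake genes, 10 of 12 were measured, and 1 rose past the adjusted threshold: Slc27a2, from 24.1, 19.7 and 12.7 in the controls to 255.2, 242.4 and 235.7 in YY1bKO, a log2 difference of 3.67 ± 0.22 (SE, limma adjusted p = 0.0114), with control values that were dim. Slc27a1, the transport protein of muscle and fat (1.19, adjusted p = 0.147 by limma), and Slc27a3 (0.31, 0.370) did not overlap between groups but did not pass, and Cd36, the main fatty acid translocase, overlapped (0.26, 0.677). The list's median was 0.11, beside 0.00 over all genes, and 3 of 10 were higher and 0 lower at an unadjusted p under 0.05, against 8.45% and 1.99% of all genes. At the adjusted threshold 1 of 10 was higher, against 0.0323% of all genes.

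Lipases release the fatty acids that FABP4 binds in fat cells. Of 8 measured genes of lipolysis, which include lipid droplet proteins, 0 passed by limma over all genes. At an unadjusted p under 0.05, 2 were higher and 0 lower (8.45% and 1.99% of all genes). These were Pnpla2, adipose triglyceride lipase (from 2342 to 3231.1 in the controls, 4878 to 7138.5 in YY1bKO; log2 difference 1.00, limma adjusted p = 0.191), and Lipe, hormone-sensitive lipase (1823.2 to 2612.4, then 3282.8 to 3971.2; 0.83, 0.211). Plin4 (0.35) and Abhd5, the coactivator of Pnpla2 (0.44), overlapped. Mgll, another lipase (-0.11, with 4 probe sets from -0.65 to -0.09), and G0s2 (-0.22) had lower means and overlapped too. The median of the list was 0.31.

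Beyond the binding proteins lie activation and oxidation. Of 14 carnitine shuttle and oxidation genes 13 had a higher mean, where 6318 of the 12394 genes tested did. The exception was Cpt1a (-0.26, with 3 probe sets from -0.48 to -0.26, overlapping), and Cpt1b was listed but not measured. At an unadjusted p under 0.05, 9 were higher and 0 lower (8.45% and 1.99% of all genes), and 0 passed by limma over all genes. Acaa2 (1.00 ± 0.09, SE, adjusted p = 0.0539), Eci1, needed for unsaturated fatty acids (1.09 ± 0.11, 0.0591), Acadvl, which starts the oxidation of long chains (0.87 ± 0.13, 0.145), and Hadhb, a subunit of the trifunctional protein (0.69 ± 0.11, 0.147), had the smallest p of the list. The other probe set of Hadhb gave 0.35. The median of the list was 0.65. Of 7 acyl-CoA synthetases listed, 4 were measured, and Acsl1, Acsl3 and Acsm5 were not. By limma 0 passed over all genes, and 1 was higher and 0 lower at an unadjusted p under 0.05 (8.45% and 1.99% of all genes). Acsm3 was at 41.9, 45.6 and 44.2 in control arrays and 99.6, 108.4 and 126.2 in YY1bKO (1.32, limma adjusted p = 0.0503), while Acsl4 and Acsl5 were highest on control replicate 2 (1968 and 3960.6, against 436.7 to 635.6 and 1022.8 to 1363 on the other arrays). The median of these 4 was -0.30, and -0.03 without control replicate 2.

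FABPs also carry ligands to PPAR nuclear receptors, and Fabp3 and Fabp4 are known PPAR targets. Of 12 receptor and coactivator genes, 2 were higher and 0 lower at an unadjusted p under 0.05 (8.45% and 1.99% of all genes), and 0 passed by limma over all genes. Ppargc1a, or PGC-1alpha, which drives the making of mitochondria, was at 74.8, 47.5 and 48.7 in control arrays and 140, 108.4 and 79.1 in YY1bKO (0.92, limma adjusted p = 0.326), and Ppara at 103.5, 221.4 and 83.8, then 303.9, 222.4 and 216.1 (0.97, 0.453). Ppara, Ppard (-0.17) and Hnf4a (-0.10) overlapped, and the list's median was -0.02. Of 10 PPAR-driven genes outside the family, all had a higher mean (6318 of 12394 over all genes), with a median of 0.68. Of these, 5 had an unadjusted p under 0.05 (8.45% of all genes were higher) and 0 passed by limma over all genes. Pdk4, the kinase that shuts pyruvate dehydrogenase, was at 1500.1, 2141.1 and 1194.6, then 4454.2, 5561.4 and 5748.8 (1.74, limma adjusted p = 0.128). Pck1 (0.82, 0.0598), of glyceroneogenesis, had a second probe set at 0.01. Ehhadh (1.01, 0.244), a peroxisomal enzyme, and Aqp7 (0.83, 0.366), the glycerol channel, followed.

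Of 9 related lipid binding proteins listed, 5 were measured. By limma 0 passed over all genes, 1 was higher and 0 were lower at an unadjusted p under 0.05 (8.45% and 1.99% of all genes), and the median was -0.09. Rbp2, Crabp1 (-0.09) and Fabp9 (-0.14) were dim on all arrays. Rbp7, a retinol binding protein of fat and endothelium, was at 972.2, 852.8 and 861.1 in control arrays and 1419.3, 1902.5 and 2490.6 in YY1bKO (log2 difference 1.08 ± 0.21, SE), without overlap and without passing (limma adjusted p = 0.195). Crabp2, a retinoic acid carrier of skin, was at 740.6 on control replicate 2 and at 14.4 to 15.9 on all others. Of 5 acyl-CoA and sterol carriers 0 passed by limma and 0 had an unadjusted p under 0.05 (8.45% of all genes were higher and 1.99% lower). They included Dbi, the acyl-CoA binding protein, at 12172.6 to 15568.9 in the controls and 13603.1 to 15735.2 in YY1bKO (0.03 ± 0.13, SE), Acbd3 (-0.23), Acbd6 (-0.15) and Dbil5 (0.06).

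**Figure D4:**
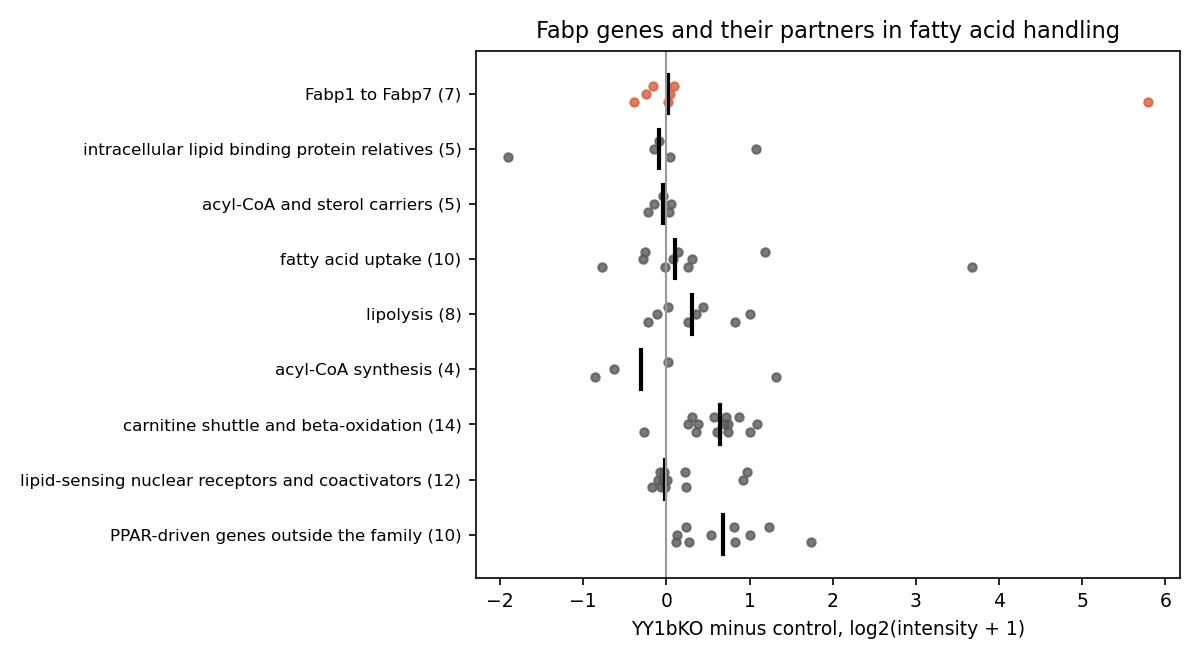
Log2 difference between YY1bKO and control of the 7 Fabp genes (orange) and of the measured members of 8 lists in fatty acid handling (grey, number in brackets), with black bars at the medians. Fabp3 (5.79) and Slc27a2 (3.67) lie far to the right of the other points, and the medians of the oxidation (0.65) and PPAR-driven (0.68) lists lie furthest above 0.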

How the data were processed

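Biotin-labelled cRNA from 6 whole-depot samples was read on Affymetrix arrays, per the labels. The authors deposited 1 intensity for each probe set and array, made with RMA, per the submitters' processing notes, which give no version or settings. RMA makes the distributions of arrays alike. Intensities between 5.4 and 25730.1 put the deposited table on a linear scale. Names came from the platform's annotation table: 20393 probe sets had 1 symbol, 691 several and 1606 none, the last 2 kinds being left out. A gene was represented by its probe set with the highest mean.

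Values were taken as log2(intensity + 1) and compared by lmFit and eBayes of limma 3.58.1 (R 4.3.3) over all 12394 genes, and over all 20393 probe sets for values by probe set, 2-sided, with Benjamini-Hochberg adjustment at 0.05. This step was tested on simulated data. No dim probe sets were removed. Spearman correlations between arrays ran from 0.957 to 0.994, and no array was a duplicate. Same-numbered arrays deviated together with correlations of 0.61, 0.10 and 0.03, most for the arrays numbered 1. Whether those share a batch was not tested. The labels name no pairs or batches, so the main fit took none, and the replicate number was used as a block in an alternative fit. Named were all Fabp probe sets, Yy1 and Ucp1, up to 4 members of each list by smallest p (markers: by highest mean), and the 5 genes most correlated with Fabp3, Fabp4 and Fabp5. Some further list members are named where they were dim or differed from the rest of their list. Members and lists were chosen with earlier results of these data known. Alternatives were another pseudocount or none, quantile or median scaling, filters on dim probe sets, other choices of probe set, trend, robust or weighted fits, the replicate number as a block, and leaving out each array. Sequences and coordinates are from RefSeq (GRCm38.p6).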

Additional observations from a re-analysis of the deposited data

How the results depend on the processing

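The number of Fabp genes past the threshold was 1 (Fabp3) in 14 of 18 alternatives and 0 with the replicate block and without YY1bKO replicate 1, 2 or 3 (range 0 to 1 over arrays left out). Fabp3 kept a log2 difference of 5.79 with the block (limma adjusted p = 0.0718), ran from 5.62 to 6.12 without 1 array, and from 5.36 to 6.12 over all alternatives (adjusted p from 0.00155 to 0.103). The causes were not tested. Fabp4 ran from 0.04 to 0.60 and Fabp5 from -0.44 to -0.12, neither passing in any alternative run. Signs turned when 1 array was left out for Fabp1 (-0.75 to 0.10, and -0.84 to 0.42 in 1448764_a_at), Fabp2 (-0.039 to 0.14) and Fabp4 probe set 1451263_a_at (-0.13 to 0.22). The ratio of Fabp3 to Fabp4 ran from 5.27 to 6.00. Filters at the 25th and 50th percentile removed Fabp1, Fabp2, Fabp6 and Fabp7. Over all genes, 4 passed in the comparison as reported, 12 with robust eBayes, 9 with a pseudocount of 16 or array weights, 7 with the most variable probe set, 6 with the mean of probe sets, 2 above the 50th percentile, 1 with the replicate block and 1 without any 1 of the YY1bKO arrays.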
